A study of Mus musculus with 4 samples.

Results

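The genes described here encode LY6 family surface proteins: Ly6a, Ly6c1, Ly6c2, Ly6d, Ly6e, Ly6i and Ly6k, 7 of the 23284 gene rows counted. They were selected by symbol, and the selection was made with results of the same comparison in view, so the difference between the genotypes in these genes is described and not tested. RNA was sequenced from leukemic cells of C57BL/6 mice, sorted for high c-Kit, a receptor of immature blood cells, in a study of MLL leukemia. The 2 Msi2 -/- mice lacked Msi2, which encodes a Musashi protein that binds RNA, and the 2 control mice were Msi2 flox/flox, with alleles flanked by loxP sites. The labels give 4 libraries for these 4 mice and do not say whether a library was made from a single animal's cells alone. The sources used here do not give the Cre driver or other means of deletion, how the leukemia was started, or the ages of the mice. The library names open with a number that differs between the genotypes and whose meaning is not stated. If it marks a batch, batch and genotype cannot be told apart.

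LY6 proteins are small extracellular proteins built on a compact, disulfide-rich fold shared with the urokinase receptor, and most are held in the outer membrane leaflet by a glycosylphosphatidylinositol (GPI) anchor. In mouse blood they serve chiefly as surface antigens. Ly-6C marks inflammatory monocytes and maturing granulocytes, while Sca-1, the product of Ly6a, is used together with c-Kit to tell hematopoietic stem cells from committed myeloid progenitors. Several genes of the family, Ly6a, Ly6c and Ly6e among them, are known to respond to interferons.

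Msi2 itself was counted 2804 and 3562 times in control libraries but 8 and 17 times in Msi2 -/- libraries, which matches the genotype labels. Gene counts per library ranged from 72273679 to 87564774, so that the floor used here, 3 counts, equals 0.0343 to 0.0412 CPM (counts scaled by library size). Transcripts of the sorted population were present in all libraries, though not at equal levels. Mpo and Elane encode granule proteins of myeloid progenitors. Mpo was lower in both Msi2 -/- libraries, with 4001 and 4952 CPM in controls and 2116 and 2159 CPM in Msi2 -/-. Kit was higher in both, with 50.4 and 51.9 CPM in controls and 68.1 and 57.1 CPM in Msi2 -/-. Elane ranged from 4208 to 6632 CPM and overlapped between the groups. Of 7 markers of c-Kit high myeloid leukemia, 5 fold changes lay above 0 and 2 below. Markers of other lineages were counted unevenly. Of 9 T and NK cell markers 4 were at 0 in every library, Cd3e among them, and the sum of 29.6 to 188 CPM came mostly from Nkg7 (22.8 to 177 CPM). Of 10 B and plasma cell markers 3 were at 0, Pax5 and Ms4a1 among them, and the sum of 19.6 to 36.9 CPM came mostly from Cd79b (18.5 to 26.3 CPM). Control 1 stood apart in its sex-linked transcripts: the summed level of Uty, Kdm5d, Eif2s3y and Ddx3y on the Y chromosome was 41.1 CPM there, against 184 CPM in the other control, 224 CPM in Msi2 -/- replicate 1 and 241 CPM in replicate 2. Xist, the RNA of the inactive X chromosome, reached 1454 and 654 CPM in control libraries but only 0.469 and 0.624 CPM in Msi2 -/- libraries. Both control libraries thus held Xist together with Y-linked transcripts, and whether they held cells of more than 1 mouse was not tested. The sources used here do not give the sexes of the mice. Because Xist was high in both controls and in neither Msi2 -/- library, the presence of cells with Xist and genotype cannot be told apart here. The part of sex or of mixed cells in the results below was not tested.

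The upstream sequences of the Ly-6C genes are shown because Ly6c1 and Ly6c2 are close copies that were counted at very different levels, as described below. Each line gives the 250 bases before the transcription start from RefSeq on the GRCm38.p6 assembly, 5′ to 3′ on the gene's strand. Capitals mark matches to the motifs listed after the lines. Ly6c2 lies at chr15:75111972-75112221 on the minus strand, Ly6c1 at chr15:75048838-75049087 on the minus strand, and the related gene Ly6f, listed at 0 to 5 counts, at chr15:75268171-75268420 on the plus strand.
Ly6c2: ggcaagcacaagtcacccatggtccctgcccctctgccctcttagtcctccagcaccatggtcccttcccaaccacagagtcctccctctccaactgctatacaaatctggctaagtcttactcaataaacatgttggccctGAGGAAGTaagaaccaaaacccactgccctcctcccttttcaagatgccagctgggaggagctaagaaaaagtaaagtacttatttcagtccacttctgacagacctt
Ly6c1: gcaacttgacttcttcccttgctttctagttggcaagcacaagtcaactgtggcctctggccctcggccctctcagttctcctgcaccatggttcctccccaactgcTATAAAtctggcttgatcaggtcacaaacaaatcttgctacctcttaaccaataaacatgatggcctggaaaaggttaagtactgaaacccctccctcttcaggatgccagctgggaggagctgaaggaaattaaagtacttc
Ly6f: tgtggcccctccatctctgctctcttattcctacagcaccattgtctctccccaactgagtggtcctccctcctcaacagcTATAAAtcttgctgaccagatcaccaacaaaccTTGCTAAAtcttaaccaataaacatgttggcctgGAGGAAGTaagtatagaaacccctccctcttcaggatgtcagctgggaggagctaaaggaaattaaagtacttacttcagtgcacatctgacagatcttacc
The Ly6c2 and Ly6c1 stretches were identical at 171 of the bases that could be aligned and mismatched at 39, an identity of 81.4% with gaps left out. Ly6c1 and Ly6f shared 86.1%, and Ly6c2 and Ly6f 82.5%. The motifs were searched on both strands. The PU.1 core GAGGAAGT was found in Ly6c2 and in Ly6f, and in 2.44% of all 32851 upstream windows of this length. TATAAA was found in Ly6c1 and Ly6f, and in 12.4% of all windows. TTGCNNAA, a C/EBP core, was found in Ly6f and in 9.56% of all windows. The interferon gamma activated site TTCNNNGAA (7.02% of all windows) and the interferon stimulated response element, searched as GAAA, any 2 bases and GAAA again (2.98%), had no match in these letters. Of the 7 genes, 2 were matched to an upstream entry, and Ly6a, Ly6d, Ly6e, Ly6i and Ly6k were not.

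Transcript levels of the 7 genes spanned more than 4 orders of magnitude within a library. Ly6c2 averaged 1247 CPM over the 4 libraries and was 52nd of all 23284 rows, and Ly6e averaged 544 CPM and was 228th. Ly6k averaged 43.9 CPM, Ly6c1 3.18 CPM and Ly6a 0.564 CPM. Ly6i averaged 0.0625 CPM and Ly6d 0.0301 CPM, levels that stand near the floor. Together the genes held 0.177% and 0.178% of gene counts in the controls, and 0.155% and 0.224% in Msi2 -/- replicates 1 and 2. Ly6c2 supplied between 60.5% and 72.7% of that sum and Ly6e between 26.2% and 33.6%.

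**Figure D1:**
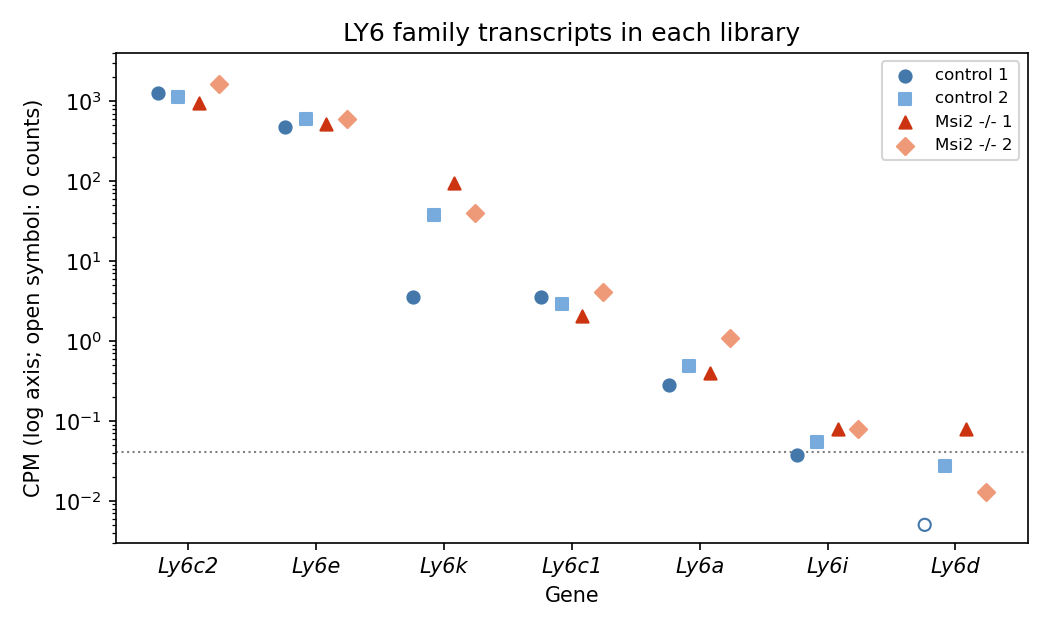
CPM (log axis) of the 7 LY6 genes in each of the 4 libraries, with 1 symbol per library, an open symbol for 0 counts and a dotted line at the level of 3 counts in the shallowest library. Ly6c2 and Ly6e lie at 468 CPM or above in every library, and Ly6k is the gene whose symbols spread most among those above the line.

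Levels of different genes can be compared only per transcript length, for which CPM was divided by the summed exon length of the gene's basic transcripts in GENCODE M21. On this scale the order was Ly6c2 at 1436 CPM per kb, Ly6e at 221, Ly6k at 52.9, Ly6c1 at 2.06, Ly6a at 0.562, Ly6i at 0.0541 and Ly6d at 0.0405. Each step down to Ly6i held in 4 of 4 libraries with no overlap of the neighbours' ranges. Ly6i and Ly6d overlapped, with Ly6i higher in 3 of 4 libraries. Per kb, Ly6c2 was 6.49-fold above Ly6e and 698-fold above its near copy Ly6c1.

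Between the genotypes, the values of Ly6a, Ly6c1, Ly6c2 and Ly6e overlapped, and those of Ly6k did not. Of the 7 genes, 5 passed the filter on low counts, and edgeR's quasi-likelihood test called 0 of the 5 at an adjusted p under 0.05. It called 0.00757% of the 13215 genes tested, a single gene that was not Msi2. The deleted gene itself had a log2 fold change of -8.07 and an adjusted p of 0.122 by this test. A gene without a call by this test is therefore not shown to be unchanged. At an unadjusted p under 0.05 the same test called 0 of the 5 and 12.9% of all genes. DESeq2 called 0 of the 5 and 5.81% of all genes, and edgeR's likelihood ratio test 0 of the 5 and 2.36% of all genes. In 1 of the 5, Ly6k, both Msi2 -/- values lay above both controls, against 23.7% of all genes apart in that direction and 48.3% in either direction. The median log2 fold change of the 5 genes, Msi2 -/- minus control, was 0.11, and that of all genes tested was -0.0020. Since the genes were selected with this comparison in view, nothing is read from these counts.

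Ly6c2 encodes the Ly-6C antigen of monocytes and granulocytes. Control libraries held 1268 and 1128 CPM, Msi2 -/- replicate 1 held 942 CPM and replicate 2 held 1649 CPM. The groups overlapped, with replicate 1 of the Msi2 -/- mice below both controls and replicate 2 above both. Means were 1198 ± 98.7 CPM in controls and 1296 ± 500.0 CPM in Msi2 -/- (SD, n = 2 each), and the log2 fold change was 0.11 with a standard error (SE) of 0.287. Without Msi2 -/- replicate 2 it was -0.35, and without replicate 1 it was 0.47. The 1.75-fold distance between the Msi2 -/- libraries was larger than that of 85.2% of genes, whereas the 1.12-fold distance between the controls was near the 1.11-fold of the median gene.

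Counts of monocyte and neutrophil markers also differed between the Msi2 -/- libraries. The 10 monocyte and macrophage markers, all with a row and none at 0 in every library, summed to 244 and 318 CPM in controls and to 134 and 494 CPM in Msi2 -/- replicates 1 and 2. Ccr2, the chemokine receptor of inflammatory monocytes, supplied most of this sum except in Msi2 -/- replicate 1, with 130 and 198 CPM in controls, 19.97 CPM in that replicate and 312 CPM in replicate 2. Of 10 neutrophil markers, 9 had a row, and they summed to 1008 and 656 CPM in controls and 1360 and 2128 CPM in Msi2 -/-. S100a8, S100a9 and Ngp supplied most of this sum in each library. Of the 8 neutrophil markers tested, 5 fold changes lay above 0 and 3 below. Among the 3 was Cxcr2, with 6.59 and 9.40 CPM in controls and 1.58 and 3.57 CPM in Msi2 -/-. Of the 9 monocyte and macrophage markers tested, 6 lay above 0 and 3 below. Within the Msi2 -/- group Ly6c2 and both sums were higher in replicate 2, but the single markers Cd14, Ltf and Mmp9 were higher in replicate 1. Between the controls, Ly6c2 and the neutrophil sum were lower in control 2 and the monocyte sum was higher. In these bulk libraries a change in the share of cells carrying a transcript and a change in RNA per cell cannot be told apart, and the part of either cell type in the Ly6c2 values was not tested.

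Ly6c1 encodes a second Ly-6C protein, found on endothelium and on some lymphocytes. Its levels were 3.59 and 2.92 CPM in control libraries, 2.07 CPM in Msi2 -/- replicate 1 and 4.15 CPM in replicate 2, so that, as for Ly6c2, the Msi2 -/- values lay on either side of the controls. Means were 3.26 ± 0.472 and 3.11 ± 1.47 CPM (SD, n = 2 each), and the log2 fold change was -0.07 (SE 0.425), moving to -0.65 without Msi2 -/- replicate 2 and to 0.36 without replicate 1. Ly6c1 made up a small and similar part of the Ly-6C counts everywhere: 0.282% (exact binomial 95% interval 0.251% to 0.317%) and 0.258% (0.225% to 0.295%) of the sum of Ly6c1 and Ly6c2 in controls. In Msi2 -/- replicates 1 and 2 it was 0.219% (0.189% to 0.254%) and 0.251% (0.224% to 0.280%). All 4 intervals overlap, and they cover counting error only.

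The sequences of the transcripts of both genes limit how well their reads can be assigned. In GENCODE M21, 21.5% of the 50-base windows of Ly6c1 transcripts occur unchanged in Ly6c2, and 9.05% of its 100-base windows. For Ly6c2, 30.8% of 50-base windows and 14.9% of 100-base windows occur in Ly6c1. The row of reads aligned to several places was 0 in all 4 libraries, so the files hold no count of reads that could not be placed, and the Ly6c1 values are uncertain to that degree. With the counts of both genes summed to 1 row, the log2 fold change was 0.11. Of the 6 endothelial markers, Emcn was at 0 in every library and Cdh5 was at most 0.123 CPM, while Pecam1, which leukocytes also express, was at 58.8 and 72.8 CPM in controls and 24.6 and 166 CPM in Msi2 -/- replicates 1 and 2. The part of endothelial cells in the Ly6c1 values was not tested.

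Ly6a encodes Sca-1. It was counted 23 and 35 times in control libraries, and 35 and 84 times in Msi2 -/- replicates 1 and 2, or 0.284 and 0.480 CPM against 0.400 and 1.09 CPM. The groups overlapped, and Msi2 -/- replicate 2 was the highest library. Its exact 95% Poisson interval was 0.871 to 1.35 CPM and that of the next, control 2, was 0.334 to 0.668 CPM. These intervals cover counting error only, not the spread between mice. Means were 0.382 ± 0.139 CPM in controls and 0.746 ± 0.489 CPM in Msi2 -/- (SD, n = 2 each). The log2 fold change of 0.96 (SE 0.662) fell to 0.07 without Msi2 -/- replicate 2 and was 0.64 to 1.52 without any 1 of the other libraries. Per kb, the Ly6a level was 3.66-fold below Ly6c1 and 2557-fold below Ly6c2. Of its 50-base windows, 19.0% occur in another gene's transcripts.

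Ly6e encodes the antigen also known as Sca-2 or thymic shared antigen, which is found on immature thymocytes and many other cells. The levels were 468 CPM in control 1, 591 CPM in control 2, 519 CPM in Msi2 -/- replicate 1 and 600.2 CPM in replicate 2. All 4 values lay within 1.28-fold of each other, the narrowest range of the 5 genes tested, and the groups overlapped. Means were 529 ± 86.9 and 559 ± 57.6 CPM (SD, n = 2 each) and the log2 fold change was 0.08 (SE 0.149). It ranged from -0.08 to 0.26 when each library was left out in turn. None of the 50-base or 100-base windows of Ly6e transcripts occurs unchanged in another gene's transcripts in GENCODE M21. Windows with mismatches and the rest of the genome were not searched. The ratio of Ly6c2 to Ly6e counts was 2.71 in control 1 and 2.75 in Msi2 -/- replicate 2, but 1.91 in control 2 and 1.82 in Msi2 -/- replicate 1, a split that crosses the genotypes.

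Ly6k, known mainly from the testis, where its protein takes part in sperm migration, was the most variable of the genes. It had 291 counts in control 1 and 2762 in control 2, and 8228 and 3074 in Msi2 -/- replicates 1 and 2. These are 3.59 and 37.9 CPM against 94.1 and 40.0 CPM. Both Msi2 -/- values lay above both controls, but Msi2 -/- replicate 2 was close to control 2. The highest library, Msi2 -/- replicate 1, was 26.2-fold above the lowest, control 1. With the values in order, the largest steps from one to the next were between the mice of the same group. The 10.6-fold distance between the controls exceeded that of 99.8% of genes, and the 2.36-fold distance between the Msi2 -/- libraries that of 91.1%. Means were 20.7 ± 24.3 CPM in controls and 67.0 ± 38.3 CPM in Msi2 -/- (SD, n = 2 each), with a log2 fold change of 1.69 (SE 1.16). It was 0.82 without control 1, 0.95 without Msi2 -/- replicate 1, 2.19 without Msi2 -/- replicate 2 and 4.22 without control 2. No 50-base or 100-base window of Ly6k transcripts is shared with another gene.

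**Figure D2:**
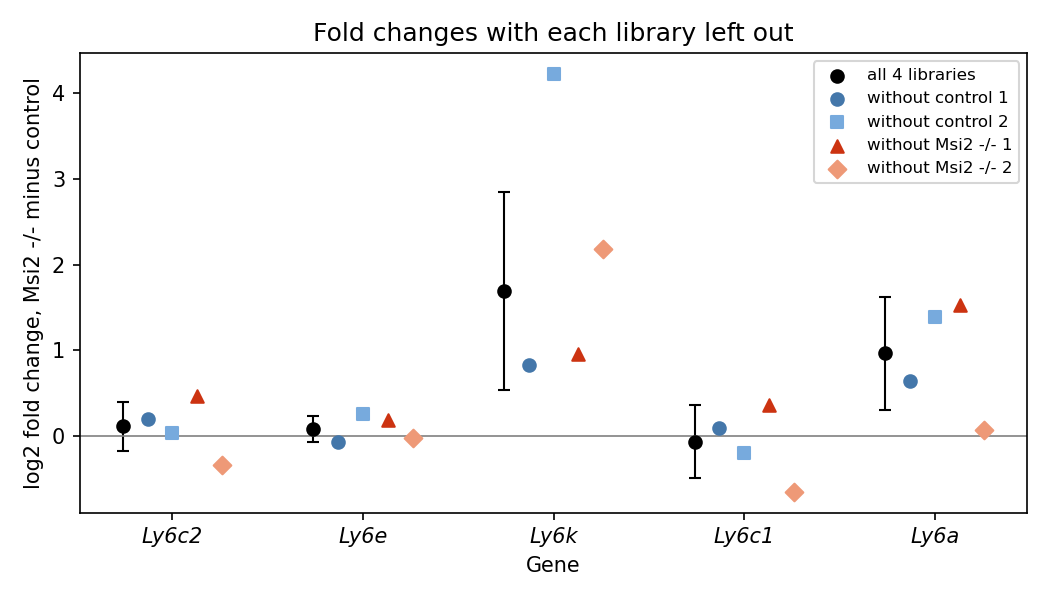
Log2 fold change (Msi2 -/- minus control) of the 5 LY6 genes that passed the filter, from all 4 libraries (black, bars show 1 SE) and with each library left out in turn (coloured symbols). Ly6e stays between -0.08 and 0.26, while Ly6k runs from 0.82 without control 1 to 4.22 without control 2.

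Ly6d marks B-lineage-committed lymphoid progenitors and keratinocytes, and Ly6i is a lesser-known close relative of Ly6a. Ly6d was counted 0 and 2 times in control libraries, and 7 and 1 times in Msi2 -/- replicates 1 and 2. For Ly6i these counts were 3 and 4 against 7 and 6. Neither passed the filter, both stood at or near the floor, and no fold change is given. Of the markers of cells in which Ly6d is known, Pax5, Krt5 and Krt14 had no count in any library, while Cd79b was at 18.5 to 26.3 CPM and Epcam at 0.546 to 2.19 CPM. Epcam, like Ly6d, was highest in Msi2 -/- replicate 1, and the part of such cells in the Ly6d counts was not tested.

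The libraries in which each gene was high or low were compared with those of the other genes, by the distance between log2 CPM values centred on each gene's mean over the 4 libraries, among 8719 genes whose mean log2 CPM was 3 or more. With 4 libraries many genes lie close to any pattern, so the nearest genes are a description. For Ly6k the nearest were Uty, Eif2s3y and Ddx3y, at distances of 1.55, 1.58 and 1.62, all Y-linked, while Ly6k itself was 3.50 from a flat pattern. The match was partial. Control 2 exceeded control 1 by 10.6-fold in Ly6k and by 4.49-fold in the Y-linked sum, and Msi2 -/- replicate 1 exceeded replicate 2 by 2.36-fold in Ly6k but was at 0.929 of it in the Y-linked sum. The part of sex-linked or mixed cells in the Ly6k values was not tested.

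For Ly6a the nearest were Lyz2, Cd68 and Cd52, at 0.237, 0.255 and 0.468, against 1.43 from flat. Lyz2 encodes the lysozyme of macrophages and granulocytes and Cd68 a lysosomal protein of macrophages. Lyz2 had 78.9 and 121 CPM in controls and 101 and 335 CPM in Msi2 -/- replicates 1 and 2, high in the same library as Ly6a. For Ly6c2 the nearest were Trio, Rab32 and Hoxa10 (0.0621, 0.0792 and 0.0833, against 0.586 from flat), for Ly6c1 Skap2, C1rl and Sh3pxd2a (0.0316, 0.0827 and 0.0880, against 0.752), and among those for Ly6e were Haus4 and Det1 (0.0226 and 0.0520, against 0.293). Hoxa10, a homeobox gene of the MLL program, had 115 and 106 CPM in controls and 81.7 and 146 CPM in Msi2 -/-, on either side of the controls like Ly6c2.

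**Figure D3:**
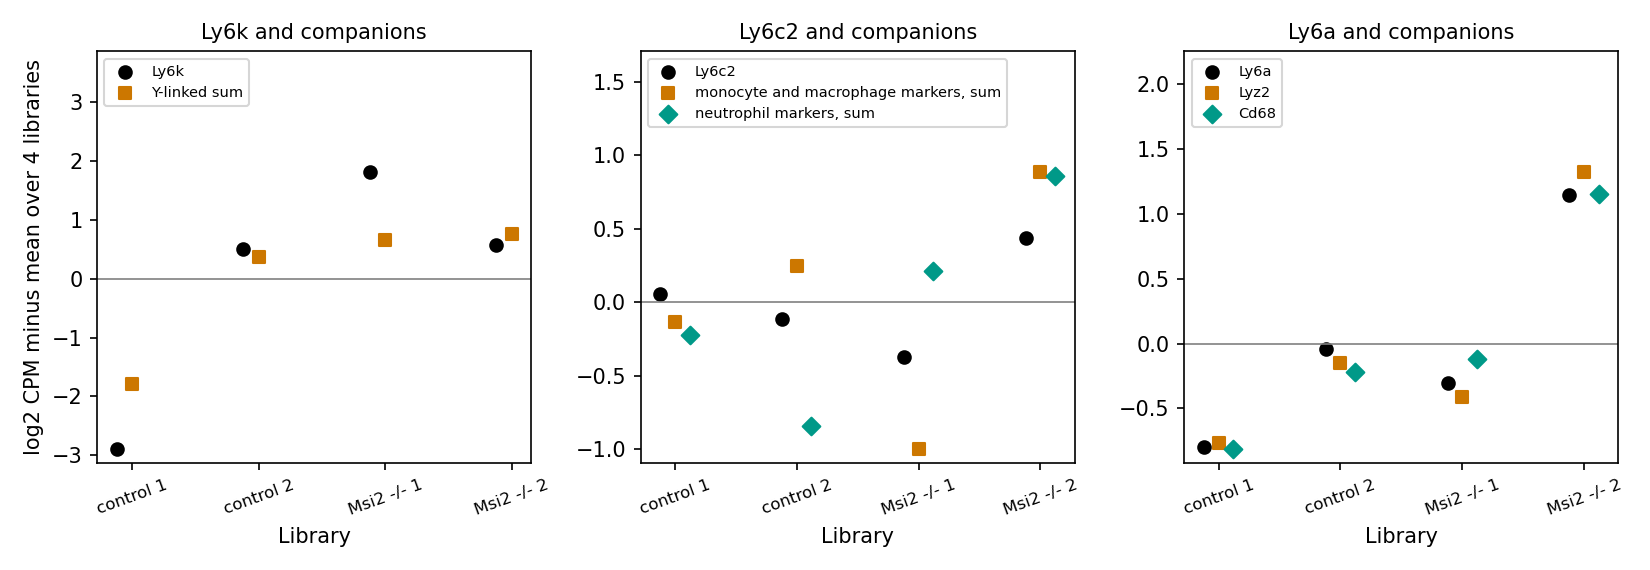
Log2 CPM minus the mean over the 4 libraries, by library, for Ly6k with the sum of 4 Y-linked genes, Ly6c2 with the summed monocyte and neutrophil markers, and Ly6a with Lyz2 and Cd68. Ly6k and the Y-linked sum are both lowest in control 1, but only Ly6k is highest in Msi2 -/- replicate 1, and the other panels are highest in Msi2 -/- replicate 2.

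Along mouse chromosome 15 the members fall into separate stretches of the Ly6 cluster. By the gene order of RefSeq on GRCm38.p6, used here for order only as the files are on mm9, Ly6d and Ly6k lie on the side of Lynx1, and Ly6e, Ly6i, Ly6a, Ly6c1 and Ly6c2 follow each other beyond Cyp11b2 and Ly6m. Of the 22 protein-coding genes from Ly6d to Ly6h, 14 had a row, and the 7 of these that are not members had at most 5 counts in any library. Within the second stretch, Ly6e at 544 CPM and Ly6c2 at 1247 CPM lay on either side of Ly6i, Ly6a and Ly6c1, none of which averaged above 3.18 CPM. A list of 12 neighbours outside the family included Cyp11b1 and Cyp11b2 from within that segment. Of the 12, 11 had a row and 8 were tested, with 5 fold changes above 0 and 3 below, a median log2 fold change of 0.15 and 0 calls by edgeR or DESeq2. The smallest edgeR p-values among them were those of Arc (log2 fold change -1.10, SE 0.493), Gsdmd (0.33, SE 0.159) and Zfp41 (0.32, SE 0.163).

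**Figure D4:**
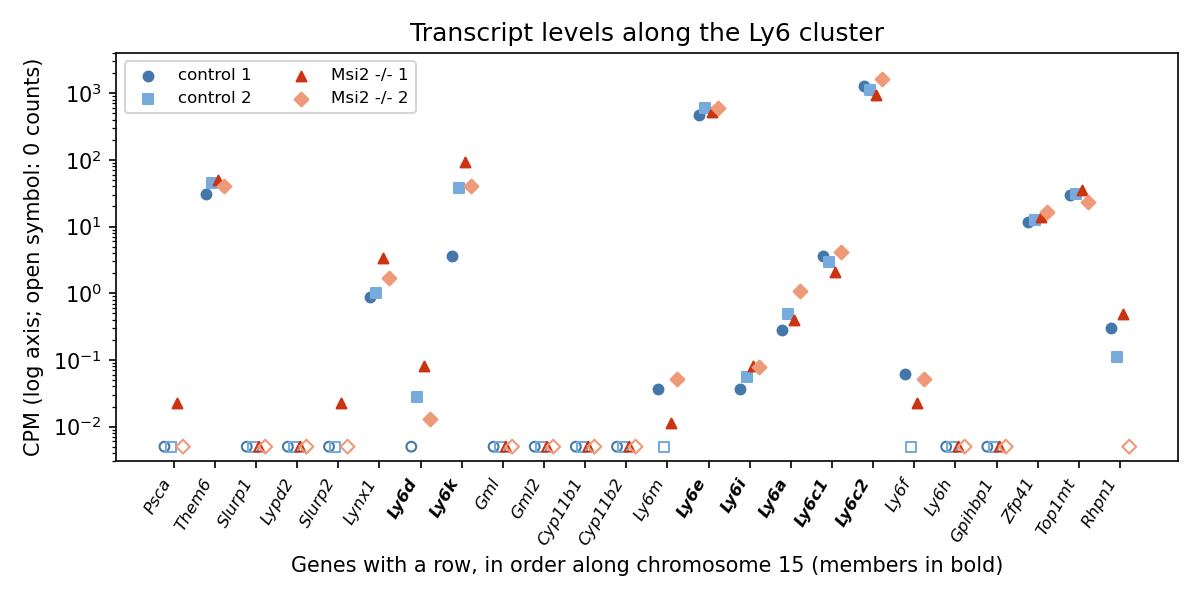
CPM (log axis) of genes with a row, in their order along chromosome 15, with LY6 members in bold, 1 symbol per library and open symbols for 0 counts. Of the members, Ly6k, Ly6e and Ly6c2 exceed 3 CPM in every library. Them6, Zfp41 and Top1mt, outside the stretch from Ly6d to Ly6h, do so too. The 7 genes shown in that stretch that are not members had at most 5 counts.

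Most other genes with a LY6 or uPAR domain did not pass the filter on low counts. Of 40 listed, 35 had a row, 14 of these were at 0 in every library and 8 were tested, with 6 fold changes above 0 and 2 below, a median log2 fold change of 0.80 and 0 calls by edgeR. DESeq2 called 1 of the 8, beside 5.81% of all genes. It was Plaur, the urokinase receptor of monocytes and neutrophils, with 35.6 and 28.7 CPM in controls and 47.8 and 52.7 CPM in Msi2 -/- (log2 fold change 0.64 with SE 0.144, adjusted p = 0.308 by edgeR and 0.00576 by DESeq2). Cd177, a neutrophil antigen and the most abundant of the list, had 101 and 66.9 CPM in controls and 65.6 and 269 CPM in Msi2 -/-, high in the same library as Ly6c2 and Ly6a. Lynx1, a modulator of nicotinic receptors whose gene lies beside Ly6d, had 0.863 and 1.02 CPM in controls and 3.32 and 1.69 CPM in Msi2 -/- (log2 fold change 1.41, SE 0.450; edgeR adjusted p = 0.360). Like Ly6k it was highest in Msi2 -/- replicate 1. For Ly6g5b, of the major histocompatibility region, the log2 fold change was 1.05 (SE 0.485), and for Cd59a, an inhibitor of the complement attack complex, -0.87 (SE 0.494). 9030619P08Rik, which RefSeq lists as a transcribed pseudogene, had 0.149 and 4.21 CPM in the Msi2 -/- libraries, below and above both controls (1.95 and 1.66 CPM).

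Of the genes that build and attach the GPI anchor, all 30 listed passed the filter, with Pgap1 the lowest at 15 and 10 counts in controls and 1 and 5 in Msi2 -/-. There were 13 fold changes above 0 and 17 below, a median log2 fold change of -0.04 and 0 calls by edgeR or DESeq2. Pigs, a subunit of the transamidase that attaches the anchor, had 119 and 115 CPM in controls and 134 and 136 CPM in Msi2 -/- (log2 fold change 0.21, SE 0.064; edgeR adjusted p = 0.350). Log2 fold changes were -0.26 (SE 0.111) for Pigv, a mannosyltransferase of the pathway, and -2.07 (SE 0.899) for Pgap1, which remodels the anchor and was near the floor. Of 18 other GPI-anchored proteins of blood cells 14 were tested, 11 above 0 and 3 below with a median of 0.54. EdgeR called 0. DESeq2 called 5.81% of all genes in either direction (414 higher and 362 lower) and 2 of the 14, both higher in Msi2 -/-. These were Bst2, the antiviral protein tetherin (54.2 and 55.7 CPM against 75.3 and 74.0 CPM, a log2 fold change of 0.44 with SE 0.067, adjusted p = 4.42e-05 by DESeq2), and Cd48, a ligand of lymphocyte receptors (1.67 and 5.39 CPM against 12.2 and 25.5 CPM, a log2 fold change of 2.42 with SE 0.715, adjusted p = 0.00505 by DESeq2). With edgeR the adjusted p was 0.271 for Bst2 and 0.346 for Cd48. Cd14, the endotoxin co-receptor, had a log2 fold change of 0.77 (SE 0.248; DESeq2 adjusted p = 0.0515).

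Because LY6 genes can respond to interferons, genes of that response were set beside them. Of 43 listed interferon response genes 40 were tested, with 31 fold changes above 0 and 9 below and a median log2 fold change of 0.34, beside -0.0020 over all genes. EdgeR called 0. An unadjusted p under 0.05 was found for 9, all higher in Msi2 -/-, beside 12.9% of all genes in either direction (884 higher and 815 lower). DESeq2 called 7, all higher, beside 5.81% of all genes in either direction (414 higher and 362 lower). Both Msi2 -/- values lay above both controls in 20 of the 40, beside 23.7% of all genes. They lay below both controls in 5 of the 40, beside 3252 of the 13215 genes tested. Beside Bst2, the smallest edgeR p-values were those of Stat2, a subunit of the factor that binds interferon response elements, with 51.8 and 49.7 CPM in controls and 66.1 and 70.0 CPM in Msi2 -/- (log2 fold change 0.42 with SE 0.076, adjusted p = 0.289 by edgeR and 0.00115 by DESeq2), and Ddx58, the RNA sensor RIG-I, with 27.3 and 24.7 CPM against 37.5 and 43.0 CPM (0.63 with SE 0.124, adjusted p = 0.293 by edgeR and 0.00131 by DESeq2). Of 11 interferon receptor and signalling genes, 8 lay above 0 and 3 below, with a median of 0.17. EdgeR called 0 of them and DESeq2 called 2, Stat2 among them. The log2 fold change was 0.22 (SE 0.062) for Tyk2, a kinase of the receptor, which DESeq2 did not call (adjusted p = 0.0594).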

How the data were processed

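RNA libraries of 2 Msi2 -/- and 2 Msi2 flox/flox mice were compared. Per the labels' protocols they were TruSeq libraries read at both ends on a HiSeq 2000. The submitters' processing notes name Trimmomatic, STAR, HTSeq, DESeq and the mouse build mm9. Neither annotation, strand setting nor overlap mode is stated, so reads of overlapping or antisense genes cannot be told apart. The deposited files give whole-number counts by gene symbol, not normalized by the authors. Rows that name no gene held 19.1% to 20.1% of the counts and were left out.

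In R 4.3.3, edgeR 4.0.16 filtered genes (filterByExpr, minimum count 10, minimum total 15), scaled libraries by TMM and tested group with a two-sided quasi-likelihood test, Benjamini-Hochberg adjusted over 13215 genes at 0.05. CPM use the TMM-scaled sizes, and SE come from the quasi-likelihood F statistic. DESeq2 1.42.0, limma-voom 3.58.1, edgeR's likelihood ratio test, other scalings and filters, a replicate block and leaving out each library were alternatives. The test script was tested on simulated data. Replicates differed by more than sampling noise (chi-square per gene 61.7 between controls and 149 between Msi2 -/- libraries), so each counts as 1 sample.

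The members and lists were chosen with earlier results of these data known. Named genes are Msi2, the members, other family genes of highest CPM (6) or called by either tool, up to 3 genes of smallest edgeR p per other list, and the 3 nearest patterns of each tested member. Lineage markers, sex-linked genes and Ly6f are named for context. Single-gene results for a few genes that the rule names are not reported here. Symbols, older ones included, were matched to RefSeq and GENCODE M21 tables on GRCm38, not the build of the files.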

Additional observations from a re-analysis of the deposited data

How the results depend on the processing

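Under every alternative 0 members passed the threshold. Over all genes edgeR called 0 higher and 1 lower, DESeq2 414 and 362, limma-voom 0 lower and the likelihood ratio test 120 and 192. With no filter 6 were lower, and 2 members had groups apart instead of 1, the added one being Ly6i at 3 to 7 counts. The share of all genes apart was not computed for that setting, so nothing is read from this. The median log2 fold change of the members was 0.77 instead of 0.11, because 7 instead of 5 entered, the added 2 at the floor. Leaving out each library in turn gave 0 to 23 genes higher, 0 to 83 lower, 1 to 5 members with groups apart (3 without control 2, 5 without Msi2 -/- replicate 1, 3 without Msi2 -/- replicate 2) and a median from -0.028 (without Msi2 -/- replicate 2) to 0.47 (without Msi2 -/- replicate 1). A group then holds a single mouse, assumed to vary like the others, and overlap is easier to avoid. The share of all genes apart was not computed for these fits, so their counts of members apart are not given.

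With the replicate number as a block, 0 genes were higher, 0 lower, and the members' median was 0.09. Same-numbered libraries share only a number: their deviations correlated at 0.0039 over genes.

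With 2 mice per group, differences of the size seen between mice cannot be told from genotype, and depth limits Ly6d and Ly6i, whose counts stood at or near the floor.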
